A study of Caenorhabditis elegans with 2 samples.

Results

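The heterochronic timing genes of Caenorhabditis elegans were examined as sites of the MADF-10 protein on chromatin. The set held 9 genes chosen by name, lin-14, lin-4, lin-28, lin-29, lin-41, lin-42, lin-46, hbl-1 and let-7, out of 46926 annotated genes, and all 9 names were found. Of these, 7 are among the 19985 protein-coding genes and 2, lin-4 and let-7, are among the 261 microRNA (miRNA) genes. A region was counted for a gene when its summit, the base of highest enrichment within it, lay in the gene or within 2000 bp upstream of it. The genes were proposed after regions at some of them had been seen in these data, so their regions, signals and ranks are given as a description and none was tested.

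Heterochronic genes set the order in which larval cells pass from the programme of one stage to that of the next. Early larval fates are kept by lin-14, lin-28 and hbl-1, and the miRNAs lin-4 and let-7 lower these and other regulators by pairing with the 3' UTRs of their mRNAs. At the end of larval life let-7 lowers lin-41, which relieves lin-29, and lin-29 switches the epidermal seam cells to the adult programme.

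MADF-10, a member of the worm proteins with a MADF domain, was mapped by chromatin immunoprecipitation and sequencing (ChIP-seq). The worms were hermaphrodites of strain OP508, genotype unc-119(tm4063) III; wgIs508, in which the inserted transgene expresses MADF-10 with GFP and FLAG at its C terminus, and the pulldown used anti-GFP per the sample descriptions, although the antibody field of the labels names madf-10. Both biological replicates were whole young adults taken 68 h after starved L1 larvae were released. All tissues were therefore mixed, and the larval transitions that the timing genes order were over. There was 1 group, and no untreated, untagged or earlier sample to set against it.

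The regions came from 4 lists that the authors made on build ce11, each with a signal value per region that is theirs and is compared here within a list only. The pooled list held 30000 regions with a median signal of 23.3, the list of replicate 1 held 25924 with a median of 10.8, and that of replicate 2 held 30000 with a median of 17.9. The reproducible list was the 1869 strongest pooled regions and ended at a signal of 92.3. The first 3 lists also contain background regions, so a region in them is not by itself a binding site. Their read depth is unknown, and no interval from counts could be given.

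Of the 9 timing genes, 7 had a reproducible region: lin-14, let-7, lin-28, lin-42, lin-41, lin-46 and hbl-1. The genes lin-4 and lin-29 had none. Over all protein-coding genes 9.7% had a reproducible summit in the same window, against 6 of the 7 protein-coding timing genes, and over all miRNA genes 15.7% had one, against 1 of 2. The genes had been picked partly for such regions, so nothing is read from this difference. Every timing gene had at least 1 pooled region, as had 53.6% of protein-coding genes. In all the 9 genes held 73 pooled regions, and 12 of these were reproducible.

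The mature miRNAs of the set are shown with their seed, bases 2 to 8, in capitals, because these bases take part in pairing with target mRNAs. Target sites in the other members were not searched. All the miRNAs were read 5' to 3' from the RefSeq annotation and genome of WBcel235, the assembly behind ce11. The other timing miRNAs that share each seed follow the member.
lin-4: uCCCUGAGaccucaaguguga
mir-237: uCCCUGAGaauucucgaacagcu
let-7: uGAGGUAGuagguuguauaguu
mir-48: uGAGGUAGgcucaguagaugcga
mir-84: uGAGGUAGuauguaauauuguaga
mir-241: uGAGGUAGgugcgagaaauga
The lin-4 miRNA lies at chrII:5902269-5902289 on the plus strand and let-7 at chrX:14744234-14744255 on the minus strand. Of these 6 miRNA genes let-7 had a reproducible region and the other 5 had pooled regions below the threshold.

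The DNA under the summits is shown for 7 of the reproducible regions, to let the strongest lin-14 site be read beside weaker ones. Each stretch is 101 bases of the plus strand of ce11 (RefSeq, WBcel235) with the summit at its middle. Capitals mark GAGAGA or GACGCAG, or their reverse complements TCTCTC and CTGCGTC.
lin-14, chrX:11473197-11473297, strongest summit: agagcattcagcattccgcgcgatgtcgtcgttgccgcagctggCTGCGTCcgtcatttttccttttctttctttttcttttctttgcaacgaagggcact
lin-14, chrX:11473398-11473498, neighbouring summit: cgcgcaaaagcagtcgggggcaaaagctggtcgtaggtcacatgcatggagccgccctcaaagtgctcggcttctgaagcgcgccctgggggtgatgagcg
lin-14, chrX:11472134-11472234, same intron: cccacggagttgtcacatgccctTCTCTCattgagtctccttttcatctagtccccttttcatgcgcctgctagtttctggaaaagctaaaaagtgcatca
let-7, chrX:14747111-14747211, upstream: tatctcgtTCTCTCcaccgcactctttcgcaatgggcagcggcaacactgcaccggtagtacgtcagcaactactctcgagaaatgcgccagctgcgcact
lin-42, chrII:1247011-1247111, intron: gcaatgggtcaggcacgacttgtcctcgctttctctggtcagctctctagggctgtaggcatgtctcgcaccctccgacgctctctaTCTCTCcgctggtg
lin-46, chrV:12967950-12968050, promoter: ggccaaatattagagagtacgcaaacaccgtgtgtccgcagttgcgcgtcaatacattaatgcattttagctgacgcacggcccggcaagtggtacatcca
hbl-1, chrX:5820113-5820213, upstream: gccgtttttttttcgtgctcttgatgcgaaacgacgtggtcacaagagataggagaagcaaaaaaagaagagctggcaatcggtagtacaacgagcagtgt

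The windows were searched on both strands for motifs chosen after results of these data were known, none of which contains another. The motif GAGAGA was in 6 of the 12 windows at the timing genes, namely 3 at lin-14 and 1 each at lin-41, lin-42 and let-7. It was in 23.2% of the 1847 nuclear reproducible windows and in 6.57% of the 15000 windows of the weaker 50% of the pooled list. GACGCAG was in 1 of the 12, at the strongest lin-14 summit, against 8.99% of reproducible and 1.31% of weaker windows. GAGCGC was in 0 of the 12, against 10.8% and 1.91%. The median GC content of the 12 windows was 49.5%, with a range from 31.7% to 63.4%, against medians of 48.5% over all reproducible and 35.6% over the weaker windows.

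lin-14 encodes a BEN domain transcription factor that holds cells in the first larval programme and is the classic target of lin-4. The gene lies on chromosome X from 11465560 to 11485871 on the plus strand, and it carried by far the strongest region of the set. That region, from 11472950 to 11473682, had a summit at 11473247 with a signal of 1492 in the pooled list, with 499.7 for replicate 1 and 998 for replicate 2. It ranked 31 in the pooled list and 30 in each replicate, so its place was the same in both replicates' lists. Its signal was 9.18 times that of the strongest region at any other timing gene in the pooled list, 9.74 times in replicate 1 and 7.99 times in replicate 2. That other gene was let-7 in the pooled list and replicate 2, and lin-46 in replicate 1.

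The lin-14 summit was inside the gene and away from both annotated starts. It lay in intron 3 of the 11 introns of transcript T25C12.1a.1, which is 11174 bp long, 7687 bp downstream of the outermost start and 7114 bp upstream of the internal start. The annotated non-coding RNA gene T25C12.6 also covers it. The nearest tRNA gene was 172436 bp away.

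The same lin-14 region was listed with another reproducible summit 201 bp further on, at 11473448, with a signal of 320 in the pooled list, with 116 for replicate 1 and 224 for replicate 2. A further summit in the same intron, at 11472184, had 184 in the pooled list, with 80.0 for replicate 1 and 114.5 for replicate 2. These 3 summits of intron 3 were strong in both replicates, with ranks between 30 and 278 in replicate 1 and between 30 and 633 in replicate 2. The 5 reproducible summits of the gene thus stood on 4 stretches of DNA.

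The other 2 reproducible lin-14 summits were weaker and stood in other introns. The summit at 11467440, in intron 1 and within the non-coding RNA gene T25C12.7, had a pooled signal of 110, with 39.5 in replicate 1 and 74.7 in replicate 2. The summit at 11482924, in intron 6, had a pooled signal of 108 and 76.7 in replicate 2, at rank 1408. In replicate 1 it overlapped a pair of regions, the one with the nearer summit at 15.7 and rank 6594 and the other at 30.0 and rank 2118. All 5 reproducible summits of lin-14 were intronic.

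The lin-14 promoter held weaker regions that missed the reproducible list. The summit 214 bp upstream of the outermost start had a pooled signal of 89.2 and 73.6 in replicate 2, and at rank 1963 it stood just outside the list. A summit 14 bp upstream of that start had 44.7 in the pooled list. Both overlapped the same replicate 1 region, which had 20.3 with its summit 65 bp upstream, so replicate 1 gave no separate value for either. A summit 54 bp upstream of the internal start had 40.7 in the pooled list. Altogether lin-14 held 34 pooled regions, 22 of them above the list's median and 23 in introns, with signals from 12.8 to 1492 and a median of 27.3. Regions were also dense in the replicates' own lists, with 22 in replicate 1 and 31 in replicate 2.

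**Figure D1:**
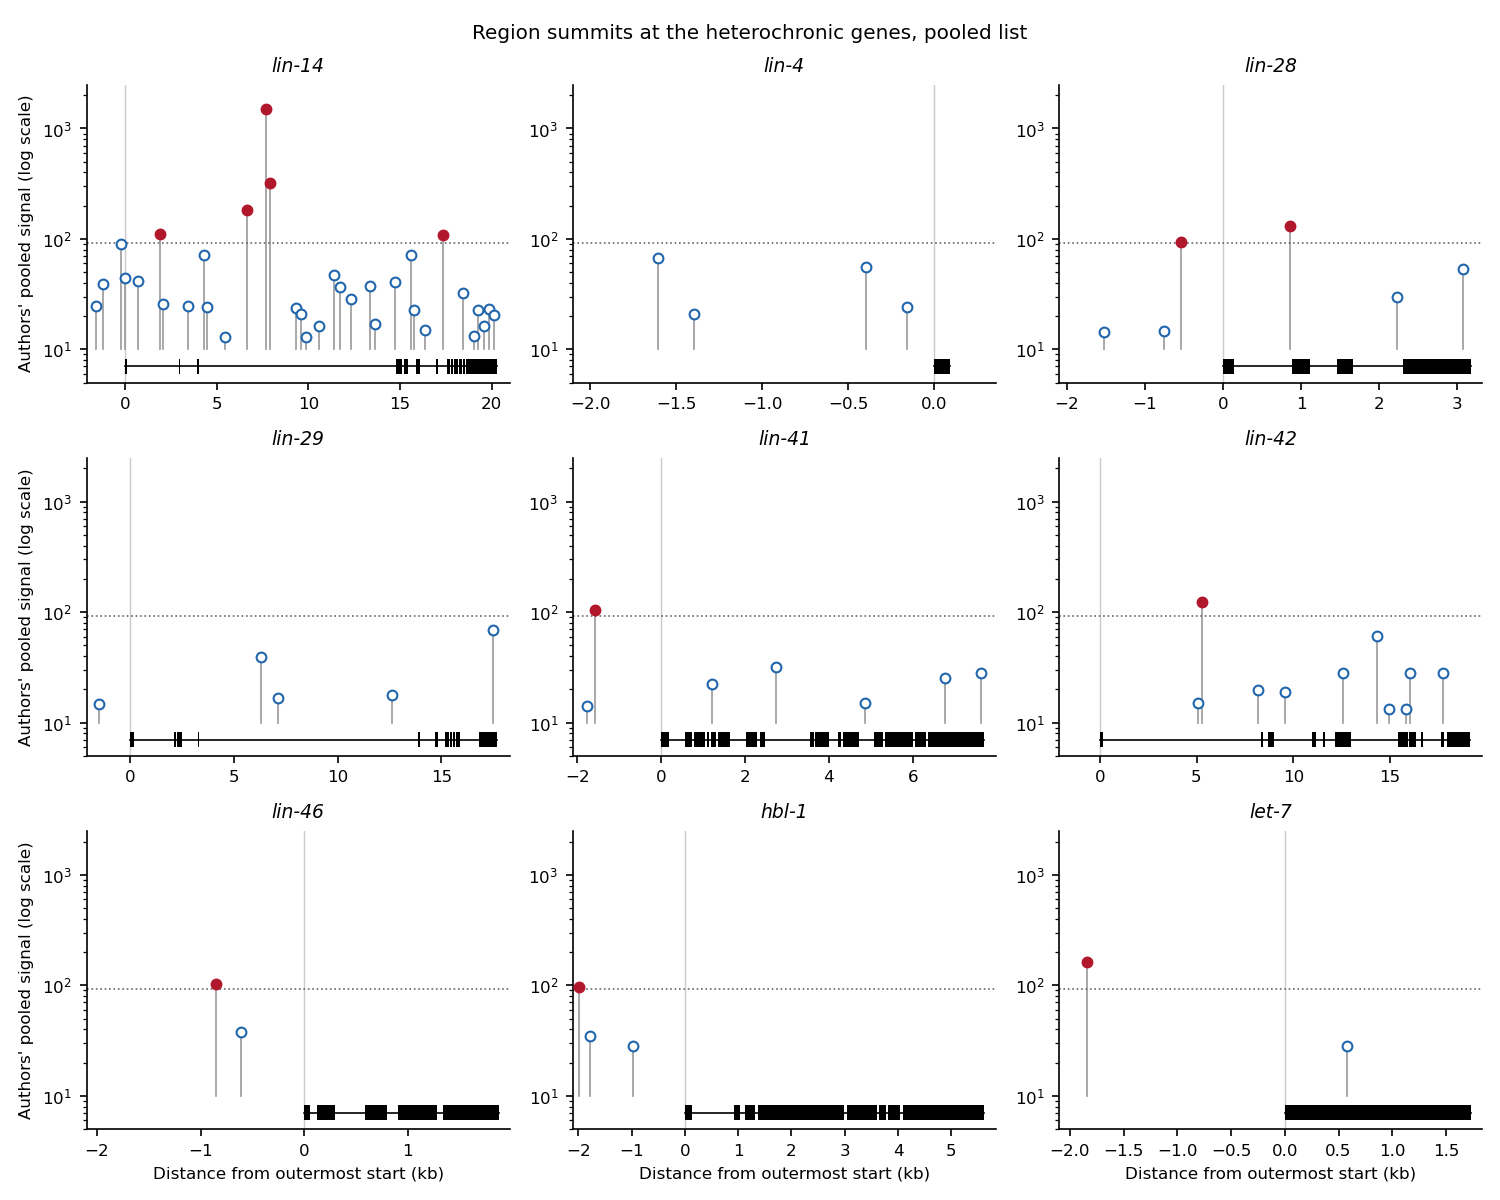
Pooled regions along each timing gene, drawn against the distance from the gene's outermost start in kb (horizontal axis, transcription to the right) with the authors' signal on a log axis (vertical), with filled circles for reproducible and open circles for other summits, black boxes for exons and a dotted line at the limit of the reproducible list. The strongest lin-14 summit stands 7687 bp inside the gene, while the reproducible summits of lin-41, lin-46, hbl-1 and let-7 stand upstream of their genes.

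Set beside all genes, lin-14 combined a strong intronic region with many others. Of the 10710 nuclear protein-coding genes with a pooled region, 11 had a stronger strongest region than lin-14, and in 0 of those 11 was it intronic, although 1484 genes had their strongest region in an intron. In all, 0.06% of protein-coding genes had 5 or more reproducible summits: 5 nuclear genes, lin-14, let-526, ppfr-1, pqn-41 and zfp-1, and 7 mitochondrial ones. Long genes collect more regions, and 263 protein-coding genes had a window of 20 kb or more. Their median was 7 pooled regions and their highest count 39, against 34 at lin-14.

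The protein-coding genes whose strongest region was most like that of lin-14 were named by the smallest distance in log2 of signal over list median across the 2 replicates, over 8929 genes. They were din-1, at a distance of 0.50, and smk-1 and vps-60, which share 1 region, at 0.56. din-1 encodes a corepressor of the nuclear receptor DAF-12, and its summit lay 8 bp upstream of a start. Its signal was 36.8 times the list median in replicate 1 and 42.8 times in replicate 2, against 46.2 and 55.8 times for lin-14.

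lin-28 encodes an RNA-binding protein that keeps the second larval programme and blocks the maturation of let-7, and hbl-1 encodes a zinc finger factor of the Hunchback type that acts beside it. lin-28 lies on chromosome I from 8407630 to 8410804 on the minus strand and had 2 reproducible regions. The stronger, with its summit at 8409949, was 29 bp upstream of an internal start and 855 bp into the gene, and its signal was 132 in the pooled list, with 32.8 for replicate 1 and 102 for replicate 2. The other, 543 bp upstream of the outermost start, had 92.9 in the pooled list, with 32.3 for replicate 1 and 61.2 for replicate 2. Both lin-28 summits were therefore next to annotated starts, unlike those of lin-14. The upstream one ranked 1853, just inside the limit of 1869. A region in the 3' UTR of lin-28, below the limit, had a pooled signal of 53.8.

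hbl-1, on chromosome X from 5822142 to 5827755 on the plus strand, had its reproducible summit far upstream. It lay at 5820163, 1979 bp before the gene and so only just within the 2000 bp searched, inside the non-coding RNA gene F13D11.20. Its signal was 96.6 in the pooled list, with 24.6 for replicate 1 and 72.9 for replicate 2. The remaining 2 pooled regions of hbl-1 had signals of 34.5 and 28.2, also upstream of the gene. No hbl-1 summit was found inside the gene body in the pooled list.

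lin-46 encodes a scaffold-like protein that acts downstream of lin-28 and opposes hbl-1. It lies on chromosome V from 12968855 to 12970730 on the plus strand, and its reproducible summit at 12968000 was 855 bp upstream. The signal was 103 in the pooled list, with 51.3 for replicate 1 and 55.2 for replicate 2. Among the strongest regions of the 9 genes, each taken relative to its list's median, it was the only one that stood higher in replicate 1, at 4.74 times, than in replicate 2, at 3.08 times. The same summit was 18 bp upstream of a start of R186.8 and 790 bp upstream of one of R186.3, so its position does not single out lin-46.

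lin-41 encodes a TRIM-NHL protein that binds RNA, is lowered by let-7 and represses lin-29. It lies on chromosome I from 9334800 to 9342496 on the minus strand. Its reproducible summit at 9344066 was 1570 bp upstream, beyond the promoter window, which was taken as 1000 bp upstream to 200 bp downstream of any annotated start. The signal was 105 in the pooled list, with 33.9 for replicate 1 and 73.8 for replicate 2. The other 6 pooled regions of lin-41 were at or below 31.6, of which 2 were in its 3' UTR.

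lin-29 encodes the zinc finger factor at the end of the pathway and had no reproducible region. It lies on chromosome II from 11917642 to 11935343 on the minus strand, and its 5 pooled regions had signals from 14.8 to 69.4. The strongest was in the 3' UTR, and hmg-12, which encodes an HMG protein, ends 229 bp from it. An intronic summit of 39.4 lay in the non-coding RNA gene Y17G7A.4. The 3' UTR region had 13.4 in replicate 1 and 58.2 in replicate 2. The replicates differed in which lin-29 region led, since that intronic summit, with 16.2, was the strongest in replicate 1 and the 3' UTR one in replicate 2. Although its window was 19.7 kb long, lin-29 held only 0.254 pooled regions per kb, the lowest of the 9 genes.

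lin-42 encodes the worm relative of the Period circadian proteins and dampens the transcription of timing miRNAs. It lies on chromosome II from 1233236 to 1252359 on the minus strand with 5 annotated starts. Its reproducible summit, at 1247061 in an intron of 8173 bp, was 5298 bp from the outermost start and 3026 bp upstream of the nearest one, inside the non-coding RNA gene F47F6.15. The signal was 122 in the pooled list, with 30.8 for replicate 1 and 88.4 for replicate 2. After lin-14, lin-42 was thus the other timing gene with a reproducible summit deep in an intron. Its next region had 60.2 and its remaining 8 pooled regions were at or below 28.4.

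let-7, the miRNA that drives the late transitions, had the strongest region outside lin-14 in the pooled list and in replicate 2. In replicate 1 the lin-46 region, with 51.3, was above it. The annotated let-7 transcript lies on chromosome X from 14743590 to 14745321 on the minus strand. The reproducible region, from 14747072 to 14747249, had a signal of 163 in the pooled list, with 35.5 for replicate 1 and 125 for replicate 2. Its summit was 1840 bp upstream of the annotated transcript and 2906 bp upstream of the mature miRNA, and also 142 bp upstream of a start of the neighbouring gene wshc-2. The region could therefore be counted to either gene. A weaker pooled region of 28.5, in the transcript 491 bp upstream of the mature miRNA and 966 bp upstream of a start of C05G5.7, had a counterpart of 26.1 in replicate 2 and none in replicate 1.

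lin-4, the miRNA that ends the first larval programme by lowering lin-14, had no reproducible region. The gene is 94 bp long, at 5902254 to 5902347 on the plus strand of chromosome II, inside intron 9 of the protein-coding gene F59G1.4. Its 4 pooled regions all had their summits upstream of it. Their signals were 66.7 at 1604 bp, 55.2 at 394 bp, 24.3 at 157 bp and 20.8 at 1397 bp. The region with its summit at 157 bp ran from 5901887 to 5902306, so it reached into the gene and covered the mature miRNA. In the replicates' own lists the strongest summit was 390 bp upstream in replicate 1, with 26.3, and 1676 bp upstream in replicate 2, with 52.6. The host gene F59G1.4 had 6 pooled and 0 reproducible regions.

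**Figure D2:**
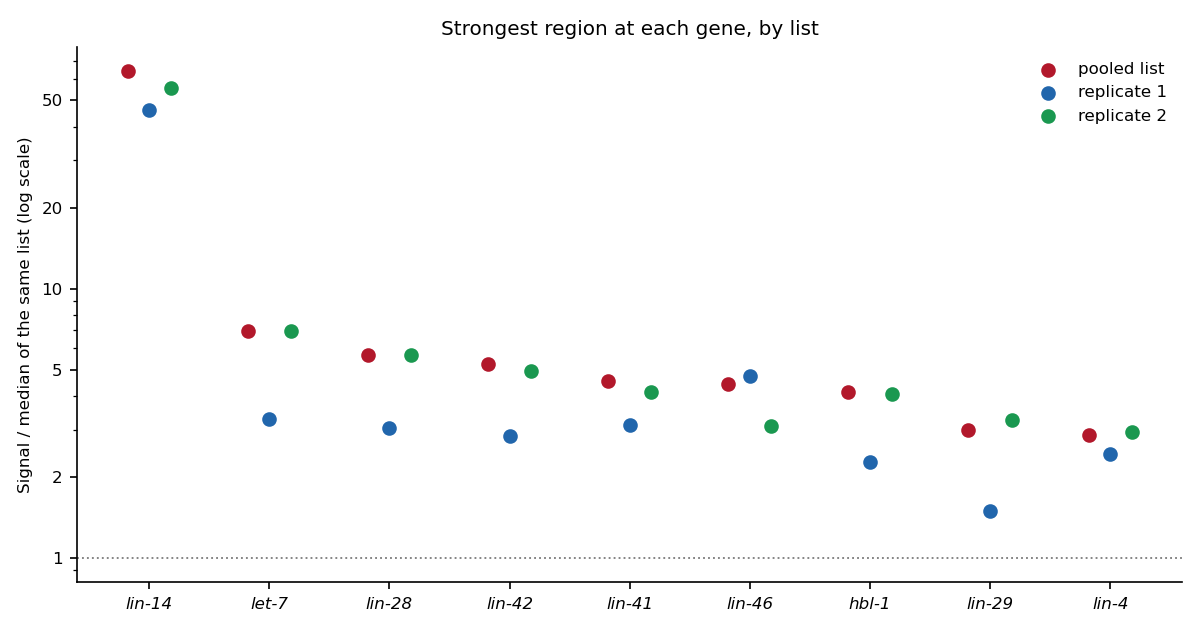
Strongest region of each timing gene in the pooled list and in each replicate's own list, as the authors' signal divided by the median of that list (log axis). lin-14 stands at 64.1, 46.2 and 55.8 times the median, and the other 8 genes lie between 1.49 and 6.99 times.

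To order the genes, the strongest region of each was expressed as a multiple of its own list's median. lin-14 was highest, at 51.0 ± 6.81 times the median (mean ± SD, n = 2 replicates). let-7 followed at 5.13 ± 2.62, lin-28 at 4.35 ± 1.87, lin-46 at 3.91 ± 1.17 and lin-42 at 3.89 ± 1.48. lin-41 was at 3.63 ± 0.703, hbl-1 at 3.18 ± 1.27, lin-4 at 2.69 ± 0.358 and lin-29 at 2.37 ± 1.24. The step from lin-14 to let-7 was larger than the spread between replicates. From let-7 downwards no gene differed from its neighbour in the order by more than the larger SD of the pair. The step from hbl-1 to lin-4 was above the SD of lin-4 but below that of hbl-1. For lin-4 and lin-29 the strongest region was a different one in each replicate. Their SDs are therefore not the spread of 1 region between replicates. At 8 of the 9 genes replicate 2 was the higher, with lin-46 as the exception. The share over all genes was not counted, so this is not read as a trait of the timing genes.

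In percentile terms, the share of a list's regions with a lower signal, the strongest regions of the 9 genes lay between 89.9% and 99.9% of the pooled list, with a median of 94.9%. The median over protein-coding genes with a region was 76.1%. The timing genes had longer windows to hold a strong region, with a median of 7.61 kb against 4.03 kb. They had also been picked partly for such regions, so nothing is read from this difference. The spread between replicates was smallest at lin-14, with 99.9% in both, and largest at lin-29, with 75.7% in replicate 1 and 92.4% in replicate 2. The limit of the reproducible list, at rank 1869, fell between hbl-1, at rank 1737, and lin-29, at rank 2889, with lin-4 at rank 3039.

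Of the 73 pooled regions, 54 overlapped a region in both replicates' lists by at least 1 bp, or 74.0%, against 55.9% of all pooled regions. All 12 reproducible ones did, as did 99.4% of the whole reproducible list. Their summits in replicate 1 were at most 117 bp from the pooled summit and those in replicate 2 at most 79 bp. Over the 54 matched regions the log2 signals of the replicates had a Pearson correlation of 0.786 and a Spearman correlation of 0.635, as a description, since some pooled regions share a replicate region and both libraries share the pooled call.

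**Figure D3:**
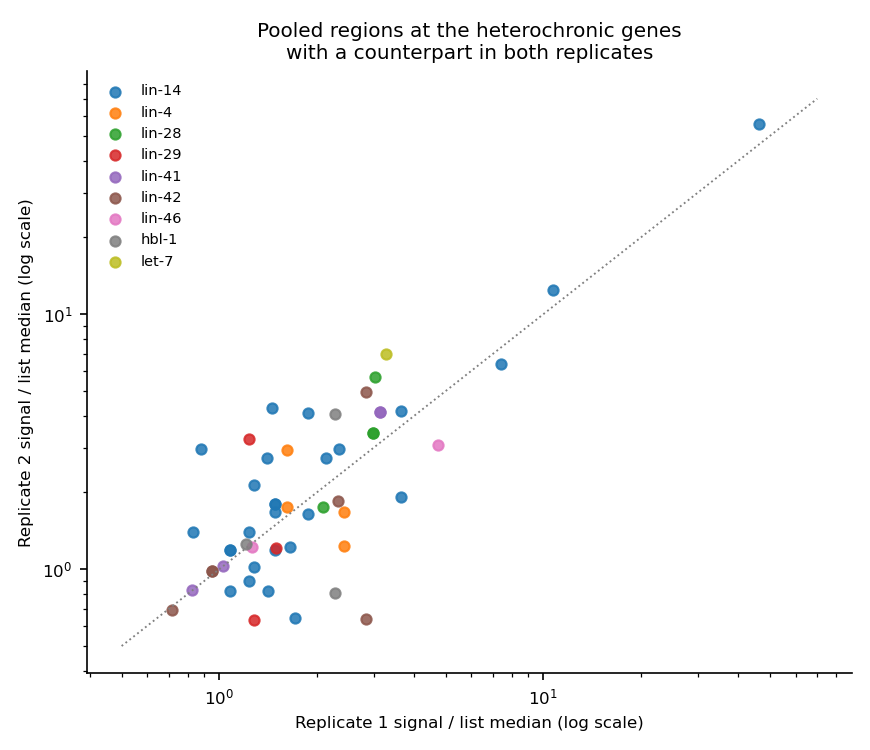
Signal over list median of the timing genes' pooled regions in replicate 1 (horizontal, log axis) and replicate 2 (vertical, log axis), for the 54 regions with a counterpart in both lists, coloured by gene; the dotted line marks equal values and points can coincide. The strongest lin-14 region stands apart at 46.2 and 55.8 times the median.

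The timing genes' summits were placed as promoter window, further upstream, exon or intron. Of the 73 pooled summits 33 were intronic, or 45.2%, and 14 were in promoter windows, or 19.2%. Over the 34026 placements at all protein-coding genes, 24.1% were intronic and 36.4% in promoter windows. Of the 12 reproducible summits 6 were intronic, 3 in promoter windows, 3 further upstream and 0 in exons, while over all protein-coding genes 15.6% were intronic and 59.3% in promoter windows. Per gene rather than per summit, 6.39% of protein-coding genes had a reproducible summit in a promoter window, and among the timing genes lin-28 and lin-46 had one.

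The intronic share rested on lin-14. It held 5 of the 6 reproducible and 23 of the 33 pooled intronic summits, and outside lin-14 10 of 39 pooled summits were intronic. In the replicates' own lists 25 of 55 summits at the 9 genes were intronic in replicate 1 and 32 of 68 in replicate 2, or 46.3% ± 1.13 (mean ± SD, n = 2). Of the 12 reproducible summits 4 were inside an annotated non-coding RNA gene, 2 of them at lin-14 and 1 each at lin-42 and hbl-1. The share of all reproducible summits inside such genes was not counted, so nothing is read from this number. None of the 12 was within 15 kb of a tRNA gene, the closest being 15365 bp away. For this too the share over all reproducible summits was not counted.

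**Figure D4:**
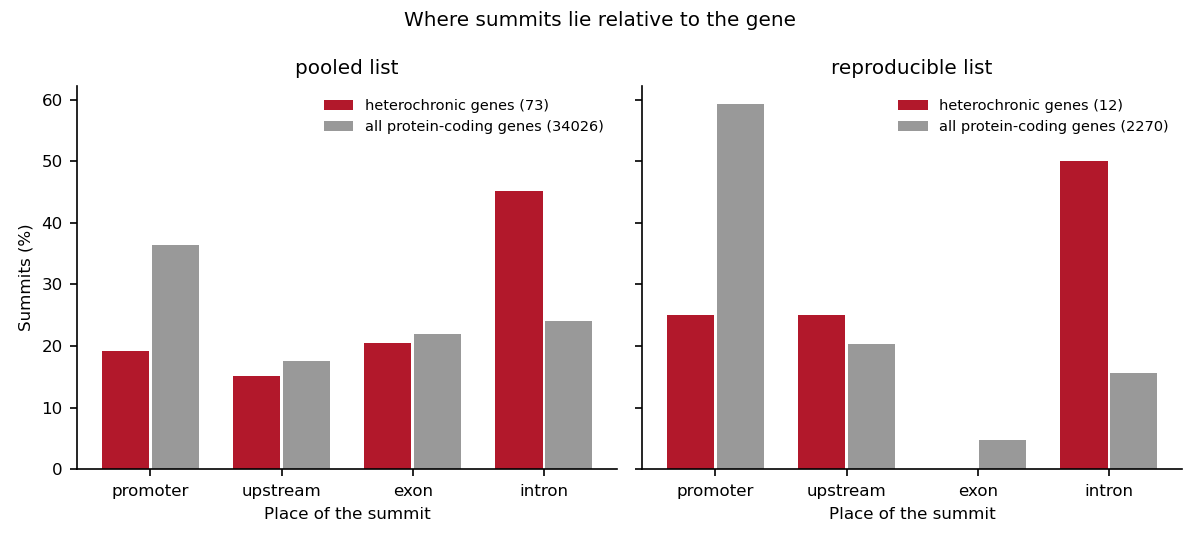
Share of summits in promoter windows, further upstream, in exons and in introns, in percent, for the 9 timing genes and for all protein-coding genes, in the pooled and the reproducible list. The timing genes show 45.2% intronic pooled summits against 24.1%, and 23 of these 33 summits belong to lin-14.

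Gene length bears on these counts. The 9 timing genes had a median window of 7.61 kb against 4.03 kb for protein-coding genes. Per kb they held 0.766 pooled and 0.126 reproducible summits, against 0.326 and 0.0217 over all protein-coding windows, where a region is counted once for each window that holds it. lin-14 alone held 34 of the 73 pooled and 5 of the 12 reproducible summits. By gene the pooled density ran from 0.254 per kb at lin-29 to 1.91 at lin-4, with 1.52 at lin-14. The genes had been picked partly for such regions, so nothing is read from these densities. The share of protein-coding genes with a reproducible summit was 7.44% for windows under 5 kb, 12.9% for 5 to 10 kb and 19.5% for 10 kb or more. In these classes 2 of 3, 3 of 3 and 2 of 3 timing genes had one. The class under 5 kb holds the miRNA genes lin-4 and let-7, although the shares given are of protein-coding genes. Over miRNA genes of any window length the share was 15.7%.

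Other genes of the timing pathway were followed as 3 lists of 34 genes in all, chosen with earlier results of these data known. Of their 29 protein-coding genes 11 had a reproducible region, against 9.7% of all protein-coding genes, and of the other 5 genes none had one. Among 19 other timing regulators 7 had one. The strongest was at daf-12, which encodes a nuclear hormone receptor that couples timing to steroid signals, with a pooled signal of 749, 268 in replicate 1 and 493 in replicate 2. Like that of lin-14, the daf-12 summit was intronic, 1594 bp from the nearest start. It was below lin-14 in all 3 lists.

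Promoter summits led the next regulators. lin-66, a negative regulator of lin-28, had a pooled signal of 449, and nhl-2, which encodes a TRIM-NHL cofactor of miRNA silencing, had 446 at a summit shared with tag-340. puf-9, which encodes a Pumilio-type RNA-binding protein, had 366. myrf-1 had 149 and myrf-2 had 122, and both encode membrane-tethered transcription factors that drive lin-4. kin-20, which encodes a casein kinase, had 124 in an intron, with 10.7 in replicate 1 and 108 in replicate 2. Of the 12 without a reproducible region, lep-5 and nhr-25 had no pooled region either, and the strongest of the rest was mir-237 with 88.8.

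Of 9 factors that make, load or degrade miRNAs, 3 had a reproducible region. ain-1, which encodes a GW182-type silencing protein, had a pooled signal of 431, with 136 in replicate 1 and 297 in replicate 2. xrn-2, an exonuclease that degrades released miRNAs, had 196 at a summit that was also 172 bp upstream of a start of bop-1 and 749 bp upstream of one of rpl-43. alg-1, an Argonaute that carries these miRNAs, had 97.2. The Dicer gene dcr-1 had no pooled region.

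Of 6 targets and readouts 1 had a reproducible region, the Ras gene let-60, a let-7 target, with a pooled signal of 398 at a summit 1454 bp upstream. pha-4, which encodes the FoxA factor of pharynx development, had 87.9, just below the limit. apl-1, the worm amyloid precursor relative, had 46.2. The median percentile of the strongest regions was 93.2% for the timing regulators, 90.8% for the miRNA factors and 82.6% for the targets, against 94.9% for the 9 timing genes.

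**Figure D5:**
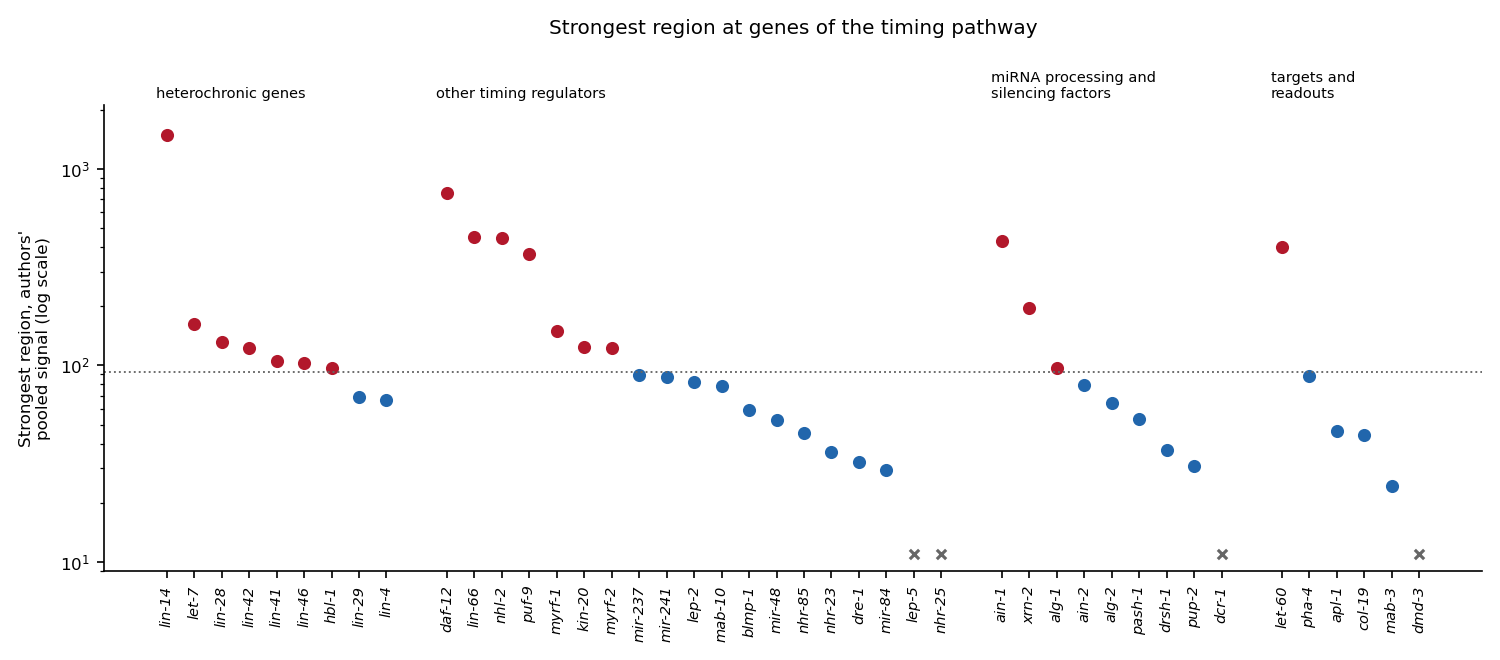
Strongest pooled region of each timing gene and of the genes of the 3 pathway lists, as the authors' signal on a log axis, with the limit of the reproducible list (dotted) at 92.3, red for genes above it, blue for genes below it and crosses for genes with no pooled region. lin-14 is highest at 1492, followed by daf-12 at 749, and 11 of the 34 other pathway genes lie above the limit.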

How the data were processed

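The authors' ce11 region lists of 2 biological replicates (1 group, by their labelled strain) were used; their ce10 lists were not used here. Per the deposited readme files, replicate lists came from each replicate's alignments and a control, the pooled list from both, and the reproducible list from an irreproducible discovery rate threshold. Not given in the sources used here are the aligner, peak caller, settings, threshold and read depth, and the control data were not analysed here. The deposited signal value of each region (narrowPeak column 7) is used as given, within a list; the deposited summit offset gave the summit.

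Genes came from the Ensembl release 115 annotation of WBcel235. The symbols lin-4, let-7 and mir were joined through the WormBase gene identifiers of RefSeq. A summit in the gene or within 2000 bp upstream was counted, in this order as promoter window (1000 bp upstream to 200 bp downstream of any start), exon, intron or further upstream. Replicate regions were matched by at least 1 bp of overlap. Values across replicates are means and SDs, with n = 2, of signal over list median. No test was made. Analyses used Python 3.11.15, pandas 2.3.3, numpy 2.4.6, pysam 0.24.0 and matplotlib 3.10.9, and the counting was tested on simulated data.

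The members, the 3 pathway lists and the motifs were chosen with earlier results of these data known. Named were all 9 members, the pathway genes with a reproducible region, the 3 strongest of each list and the 3 genes most like lin-14. Neighbours or hosts were named where they hold a member's reproducible region. Of those that hold only a weaker region of a member, some were named and others, such as F02E9.7 at lin-28 and F59G1.12 at lin-4, were not. Other genes named were chosen after their values were seen. Alternatives covered the search distance, overlap in place of summit, the threshold, the promoter window, and each replicate's own list.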

Additional observations from a re-analysis of the deposited data

How the results depend on the processing

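The number of timing genes with a reproducible region fell from 7 to 4 when 1000 bp upstream were searched (lin-41, hbl-1 and let-7 dropped out) and to 2, lin-14 and let-7, when the stronger 50% of the reproducible list was used. Any overlap with the window left it at 7. With the 1869 strongest regions of 1 replicate's own list in place of the reproducible list it was 5 to 6: lin-42 and hbl-1 were missing without replicate 2, and lin-46 without replicate 1. All 9 genes had a region under every alternative tried. Promoter summits numbered 14, or 9 with a window of 500 bp upstream to 100 bp downstream, 31 with 2000 bp upstream, and 9 with the outermost start only. The median percentile of 94.9% became 92.9% to 94.9% with 1 replicate's own list. No paired analysis was possible because there was 1 group. Among the 9 timing genes lin-14 kept the strongest region in each replicate's list. With 2 replicates, no control library analysed and the depth unknown, weak regions cannot be told apart from background.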
